A study of Zea mays with 21 samples.

Results

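The comparison described here set the green section of zb10 maize leaves against wild-type (WT) leaves at the V4 stage, by counting transcripts of all genes. Its members are 6 of the 21 RNA-seq libraries of the series, 3 from the zb10 green section and 3 from WT leaf, chosen by their labels alone. The other libraries come from the white section of zb10 V4 leaves, from WT and zb10 leaf at V9, and from endosperm of both genotypes 16 days after pollination, 3 to a group. zb10 is a zebra-leaf mutant that the series attributes to loss of function of ZmPTOX, the plastid terminal oxidase. The labels give no treatment, no inbred background, no allele beyond the name zb10, and no account of how green and white tissue were separated or of how many plants went into a library. The V9 labels name no leaf section.

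Plastid terminal oxidase takes electrons from plastoquinol in the thylakoid membrane and passes them to oxygen. The plastoquinone it regenerates is the electron acceptor of phytoene desaturase, so the enzyme is needed for coloured carotenoids while chloroplasts are being built. In Arabidopsis its loss gives the variegated mutant immutans, in which green sectors hold normal chloroplasts although every cell carries the mutation. By analogy, the green section of zb10 is taken here as mutant tissue that has greened. In its comparison with WT, the mutation, any difference of background and any white tissue in the sample cannot be told apart.

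Library totals of the 6 libraries ran from 30365859 to 37292787 counts. At V9, WT replicate 1 had 123050963 counts and the other libraries 32482762 to 53092962, so raw V9 counts given below differ in depth. Genes are given by ID, because 0 of 50142 IDs in the count table matched the reference table used here; the ID of the mutated gene, the carotenoid genes and the alternative oxidases were not looked up, and no role is given for any ID. Leaf marker genes could not be checked by name. Leaf-enriched genes, defined by a level 16 times or more that of endosperm in V9 leaf, held 38.4% to 42.3% of counts in the 6 libraries, and endosperm-enriched genes held 0.325% to 0.382%. Across tested genes, log2(CPM + 0.5) of single WT and green libraries correlated at 0.977 to 0.981, where CPM is the count scaled to library size. Pairs of WT libraries correlated at 0.987 to 0.988, pairs of green libraries at 0.981 to 0.983, and green with white libraries at 0.943 to 0.96.

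A short list of genes was called between the green section and WT leaf. In 26871 tests, 112 genes came out higher and 93 lower than WT in green leaf tissue (edgeR quasi-likelihood test, Benjamini-Hochberg adjusted p under 0.05), which is 0.417% and 0.346% of those tested and 0.763% together. In the same test 3389 genes (12.6%) had an unadjusted p under 0.05. The length of the list is therefore no measure of how many genes differ. Among the called genes, more than 2-fold changes made up 67 of the higher and 56 of the lower ones, and more than 4-fold changes 33 and 16. The median log2 fold change was 1.24 among the higher and -1.13 among the lower genes, against 0.0073 over all genes tested. Green and WT libraries did not overlap in any of the 205 genes; over all tested genes this held in 20.8%.

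The list depended on which libraries shared the estimate of spread, and every one of the 6 libraries mattered to its length. Leaving out WT replicate 1, 2 or 3 left 40, 42 and 71 calls, and leaving out green replicate 1, 2 or 3 left 90, 71 and 86. With WT and green libraries alone 459 genes were called, with all 21 libraries 75, and with DESeq2 927, among them all 205. No called gene changed direction in any of 19 alternatives. Groups without overlap and the reuse of the same libraries nearly fixed that outcome. Of the 205 genes, 28 (22 higher, 6 lower) stayed called whichever of the 6 libraries was left out. The 17 that stayed called in all 19 were 14 higher and 3 lower IDs, the lower ones being Zm00001d001909, Zm00001d052985 and Zm00001d041960 (log2 fold change -1.78), of which the last was picked out after its values were seen.

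**Figure D1:**
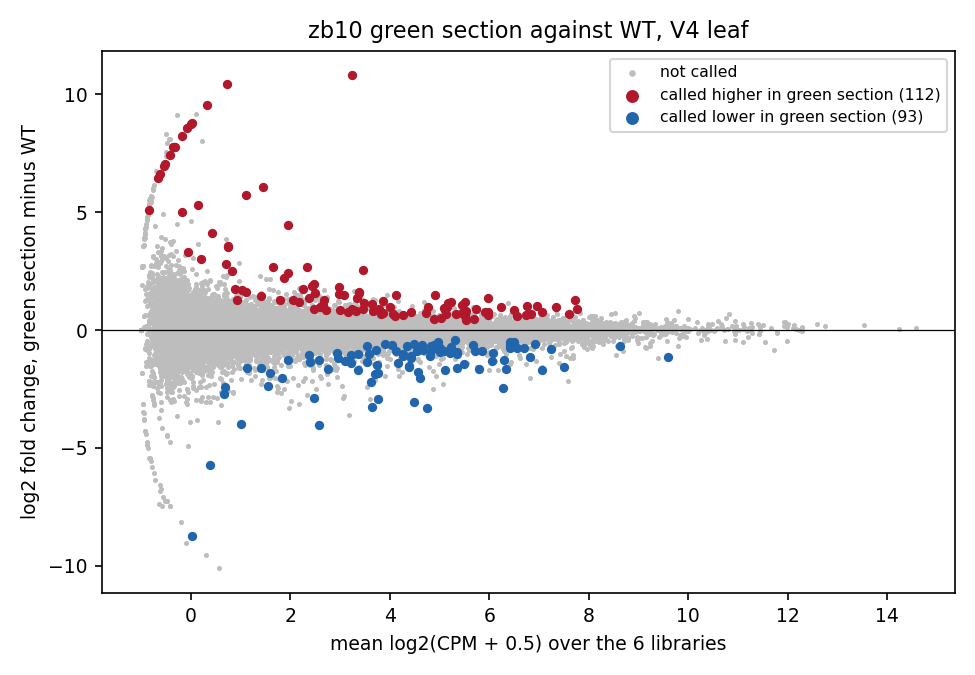
Log2 fold change of the green section over WT (vertical axis) against mean log2(CPM + 0.5) over the 6 libraries (horizontal axis) for 26871 genes. Grey points were not called, red points are the 112 genes called higher and blue points the 93 called lower. Nearly all of the largest fold changes sit at low abundance on the left, and the point at the top right of them is Zm00001d042453.

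**Figure D2:**
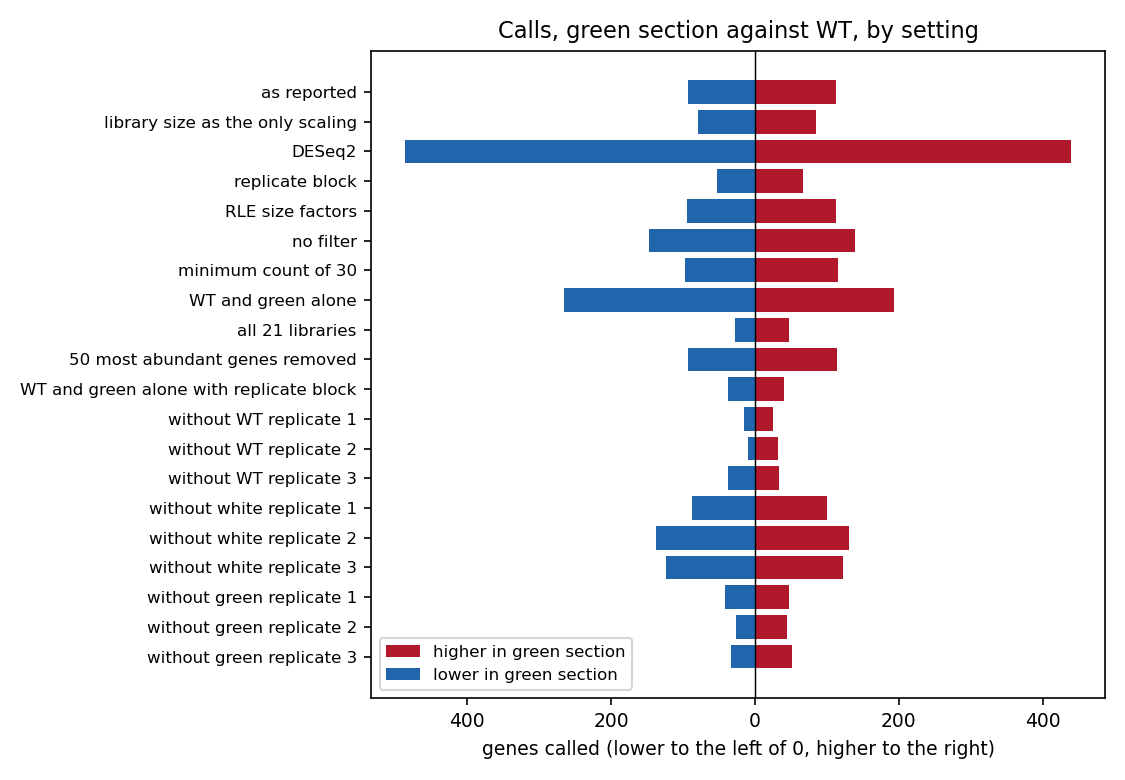
Genes called higher (red, to the right of 0) and lower (blue, to the left) in the green section under the reported fit and 19 alternatives, on a linear axis of gene counts. The total runs from 40 without WT replicate 1 to 927 with DESeq2.

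The genes with the lowest p, Zm00001d001909 and Zm00001d042453, were set apart from WT by wide gaps. Zm00001d001909 stood at 64.5, 66.7 and 56.8 CPM in the WT libraries and at 7.85, 7.30 and 7.21 CPM in the green ones. Every green library was far below every WT library (log2 fold change -3.06, SE 0.1, adjusted p = 5.4e-07). White leaf tissue held 4.51 ± 0.267 CPM of this transcript (SD over 3 libraries), below the green level (white minus green -0.69 on the log2 scale, SE 0.10, adjusted p = 0.001).

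Zm00001d042453 was close to absent in WT leaf, with 2, 7 and 0 counts, and had 4437, 5163 and 6147 counts in the green libraries. Green leaf thus held 155 ± 9.62 CPM and WT 0.0844 ± 0.104 CPM (SD over 3 libraries). The log2 fold change was 10.81 with an SE of 0.39 (adjusted p = 7.8e-07), and white tissue was level with green at 144 ± 31 CPM. At V9 the zb10 libraries held 9837, 6093 and 5817 counts and the WT libraries 8, 12 and 6. In endosperm the zb10 libraries held 19597, 0 and 10001 counts, so zb10 endosperm replicate 2 stood with the WT libraries, which had 4, 6 and 0.

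Zm00001d052985 stood at 19.2, 23.9 and 18.8 CPM in WT and 0.961, 1.03 and 1.70 CPM in green. The groups were far apart (log2 fold change -4.05, SE 0.23, adjusted p = 3e-05), and white was at 1.31 ± 0.014 CPM. Zm00001d001771 was at 1.46, 2.41 and 1.40 CPM in WT and 12.6, 12.6 and 8.69 CPM in green. Each green library exceeded each WT library by a wide margin (2.69 on the log2 scale, SE 0.26, adjusted p = 0.0019), and white, at 11.2 ± 2.53 CPM, was not called different from green (log2 difference 0.02, SE 0.24).

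Zm00001d042541, the second largest fall among reference-style IDs of moderate abundance, had uneven replicates. It was at 119, 119 and 46.3 CPM in WT and at 17.1, 3.14 and 8.10 CPM in green. WT replicate 3 was low and green replicate 1 high within their groups, without overlap (-3.32 on the log2 scale, SE 0.56, adjusted p = 0.03). It did not pass without WT replicate 1 or 2 or green replicate 2 or 3, with adjusted p of up to 0.11.

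**Figure D3:**
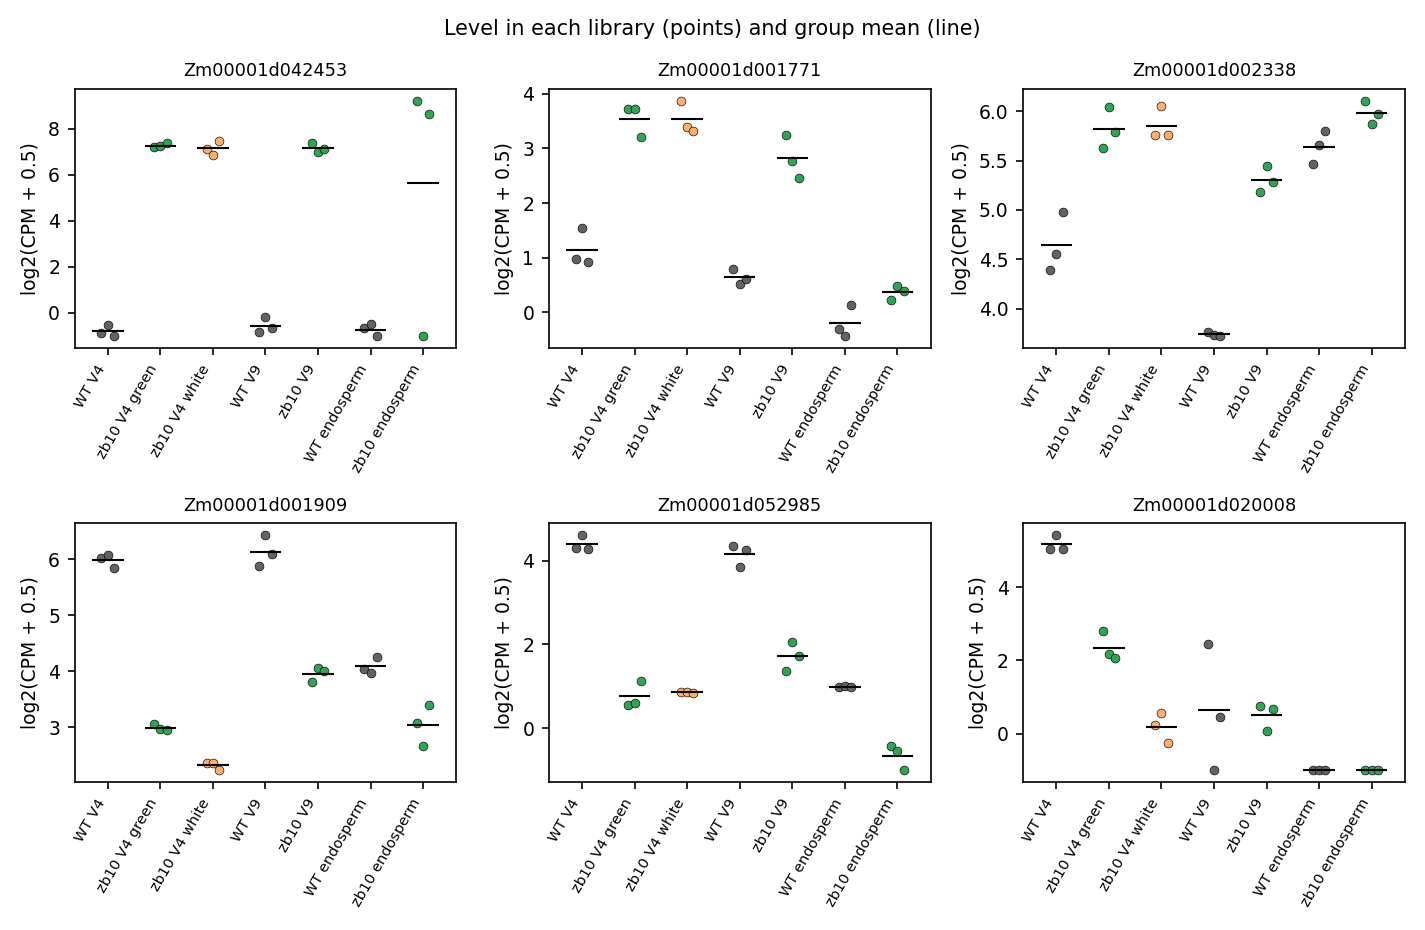
Level of 6 genes as log2(CPM + 0.5) in every library of the 7 groups; points are libraries, black lines group means, grey is WT, green is the zb10 groups other than white, and orange is the white section. Zm00001d042453, Zm00001d001771 and Zm00001d002338 are higher and Zm00001d001909, Zm00001d052985 and Zm00001d020008 lower in the green section than in WT.

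Among the called genes with a mean of 100 CPM or more over the 6 libraries, 3 were more than 2-fold higher and 5 more than 2-fold lower. The largest fall among them was in Zm00001d004348 (-2.48 on the log2 scale, SE 0.32, adjusted p = 0.0104), picked out after its values were seen. The most abundant called genes in each direction follow, apart from Zea_mays_newGene_6850, which is given with the new loci below. It rose by 1.29 on the log2 scale, from 136 ± 12.3 CPM in WT to 332 ± 72.9 CPM in green. Zm00001d007827 stood at 164, 146 and 169 CPM in WT and 262, 338 and 279 CPM in green. All green libraries were above all WT libraries (0.89 on the log2 scale, SE 0.15, adjusted p = 0.031), and the white section reached 1710 ± 227 CPM. Zm00001d031128, the most abundant of the genes that fell, was at 1180, 1520 and 796 CPM in WT and 491, 589 and 510 CPM in green. WT varied nearly 2-fold among its own libraries, but its lowest stayed above the highest green one (log2 fold change -1.13, SE 0.21, adjusted p = 0.043). Zm00001d038648 was at 512, 541 and 454 CPM in WT against 303, 285 and 342 CPM in green (log2 fold change -0.69, SE 0.13, adjusted p = 0.047). These calls were fragile. Leaving out any of the 6 libraries ended that of Zm00001d007827 and Zm00001d038648 (adjusted p of 0.06 to 0.19), and any of them but WT replicate 3 ended that of Zm00001d031128 (adjusted p of up to 0.14).

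By abundance, 17 higher and 1 lower gene were called among 5342 genes with a mean under 1 CPM (0.337%). From 1 to 10 CPM there were 39 higher and 20 lower of 9145 (0.645%), and from 10 to 100 CPM 47 higher and 63 lower of 10848 (1.01%). At 100 CPM or more 9 were higher and 9 lower of 1536 (1.17%). Higher calls thus outnumbered lower ones under 10 CPM only.

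Transcripts typical of leaf did not shift as a body. Of 2010 tested leaf-enriched genes 27 were higher and 21 lower (2.39% called, against 0.763% of all tested genes), with a median log2 fold change of 0.02 against 0.01 over all genes. The number called moved with the fit as the whole list did, to 135 with WT and green alone, 79 without white replicate 2 and 7 with all 21 libraries. It was 3, 4 and 15 without WT replicate 1, 2 or 3, and 17, 10 and 17 without green replicate 1, 2 or 3. In bulk leaf, fewer cells of a type and less RNA per cell cannot be told apart.

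Leaf-enriched genes held 38.8%, 40.7% and 40.4% of counts in WT and 42.3%, 42.2% and 38.4% in green. Green replicate 3 was the lowest and the other green libraries the highest of the 6, so the groups overlapped (difference 1.0 percentage points, exact two-sided permutation p = 0.6; 3 against 3 libraries cannot give less than 0.1). The 100 most abundant V9 leaf transcripts included 2 genes called higher and 0 lower (2.0%, against 0.763% of all tested genes), too few to read a direction. Their median log2 fold change was 0.12, against 0.01 over all tested genes. Genes with like levels in both tissues were called in 0.482% of 7262 cases, 19 higher and 16 lower.

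A missing call does not show an equal level, so the interval of each fold change was read as well. For 17498 genes, 65.1% of those tested, the 95% interval of the log2 fold change (not adjusted for multiple genes) lay within -1 to 1, that is, within 2-fold of WT in either direction. The share was 97.9% for genes shared by leaf and endosperm, 77.8% for leaf-enriched genes and 80.0% for the top 100 leaf transcripts. For white against WT, in the same fit, 51.8% of genes had such an interval. For the other genes the data set no bound of 2-fold.

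IDs of the newGene form, by their name loci added to the annotation, were called in 24 higher and 3 lower of 3818 tested cases (0.707%). Over all tested genes 112 were higher and 93 lower (0.763%). Of the 24 higher loci, 7 had at most 3 counts over the WT libraries and passed the filter only through the zb10 ones. The median log2 fold change of the new loci was 0.12, against 0.01 over all tested genes. They held 3.79%, 2.65% and 3.29% of counts in WT against 4.08%, 2.70% and 2.97% in green, with overlapping groups (exact two-sided permutation p = 1). Zea_mays_newGene_6850 was at 124, 136 and 149 CPM in WT and 415, 280 and 300 CPM in green. The groups were apart (1.29 on the log2 scale, SE 0.19, adjusted p = 0.016), while white lay at the WT level with 143 ± 31.5 CPM. Without any one WT library its call was lost (adjusted p of up to 0.081).

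Zea_mays_newGene_16439 had the same order, with 5.32, 6.2 and 6.47 CPM in WT, 19.2, 12.1 and 14.9 CPM in green and 7.71 ± 1.51 CPM in white. All green libraries were above WT (1.37 on the log2 scale, SE 0.20, adjusted p = 0.018). Without any 1 of the 6 libraries other than green replicate 2 the gene did not pass (adjusted p of up to 0.081). Zea_mays_newGene_11147 and Zea_mays_newGene_5645 stood lower in green, at 114 ± 1.43 against 199 ± 7.31 CPM and at 80.0 ± 13.4 against 137 ± 19.5 CPM. Their adjusted p of 0.02 and 0.046 passed the threshold, and leaving out any of the 6 libraries ended both calls (adjusted p of up to 0.14).

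A subset of 17 called genes had at most 3 counts over one group of 3 libraries. Of these, 16 were higher in green, and 15 had 0 counts in every WT library. They passed the filter on low counts only through the libraries in which they were present, so their fold changes at V4 are a description. Zea_mays_newGene_15148 had 182, 158 and 159 counts in green and 0 in each WT library. With a floor of 3 counts set for the WT group as a whole, this is at least 179-fold higher. Zm00001d006346 had 64, 118 and 88 counts against 0, at least 96.7-fold higher, and Zm00001d033871 had 44, 54 and 61 against 0, at least 57.0-fold higher. The last of these was picked out after its values were seen. Zm00001d003674 went the other way, with 52, 56 and 59 counts in WT and 0 in each green library, at least 51.8-fold lower; its call (adjusted p = 0.042) was lost without any one of the 6 libraries, with adjusted p of up to 0.15. Floors cover counting error only.

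The same 17 were read in libraries that the V4 comparison did not use. Of the 16 higher genes, 10 also had at most 3 counts in all WT V9 libraries together, and in 9 the zb10 V9 libraries stood above the WT ones without overlap, which held for 6.39% of all tested genes. In endosperm 3 of the 16 did so, against 3.9% of tested genes. Genes near 0 in WT V9 leaf can hardly lie below WT there. The share of all tested genes, which can go either way, is thus no like background at V9. Zm00001d033871 had 65, 74 and 55 counts in zb10 V9 leaf and 0 in each WT V9 library, and 54, 42 and 42 counts in zb10 endosperm against 22, 0 and 2 in WT. Zm00001d006346 had 124, 121 and 101 counts in zb10 V9 leaf against 7, 0 and 0 in WT, and 84, 62 and 64 in zb10 endosperm against 50, 22 and 2. For both, the genotypes did not overlap in green leaf, V9 leaf or endosperm. The endosperm difference of Zm00001d006346 was not called (log2 fold change 1.68, SE 0.78, edgeR adjusted p = 0.86). Of the 16, 10 were tested at V9 and 0 passed with edgeR, the lowest adjusted p being 0.0544 for Zm00001d006346.

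Within the 17, 3 genes had another pattern, with traces in green and high counts in white; they were picked out after their values were seen. Zm00001d011420 had 38, 29 and 42 counts in green, 1472, 1437 and 1080 in white and 0 in each WT library. Zm00001d042651 had 14, 5 and 16 counts in green, 257, 267 and 260 in white and 0 in WT. Zm00001d045369 had 4, 3 and 5 in green and 150, 120 and 114 in white, again with 0 in WT. At V9 these genes were near 0 in both genotypes, with sums of 3, 0 and 10 counts over the zb10 libraries.

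Genes far from WT in the white section were followed as a list across the 9 V4 libraries. The 50 genes at least 16-fold higher in white than in WT, with 10 CPM or more in white, summed to 122 to 126 CPM in the WT libraries. They summed to 310, 388 and 462 CPM in the green libraries and to 4440, 4910 and 5820 CPM in the white ones. Green lay above WT without overlap and far below white, and the median gene of the list stood at 4.59% of its white level. The list rests on white against WT alone, so it also holds genes level between the sections. Zm00001d042453 is such a gene (white minus green -0.07 on the log2 scale, edgeR adjusted p = 0.86). Its 147, 151 and 165 CPM in the green libraries make up a large part of the green sums. At most 1 of the 50 was at 0 in any green library, and at most 2 in any WT library.

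The 21 genes at least 16-fold lower in white ran the other way. They summed to 1130, 1590 and 1090 CPM in WT, 443, 248 and 166 CPM in green and 57.6, 47.3 and 30.2 CPM in white. Green was between the other groups in all libraries. Both lists were chosen on the white and WT libraries, so the WT levels are set by that choice, and the part that white tissue in the green samples may have in the green levels was not tested.

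**Figure D4:**
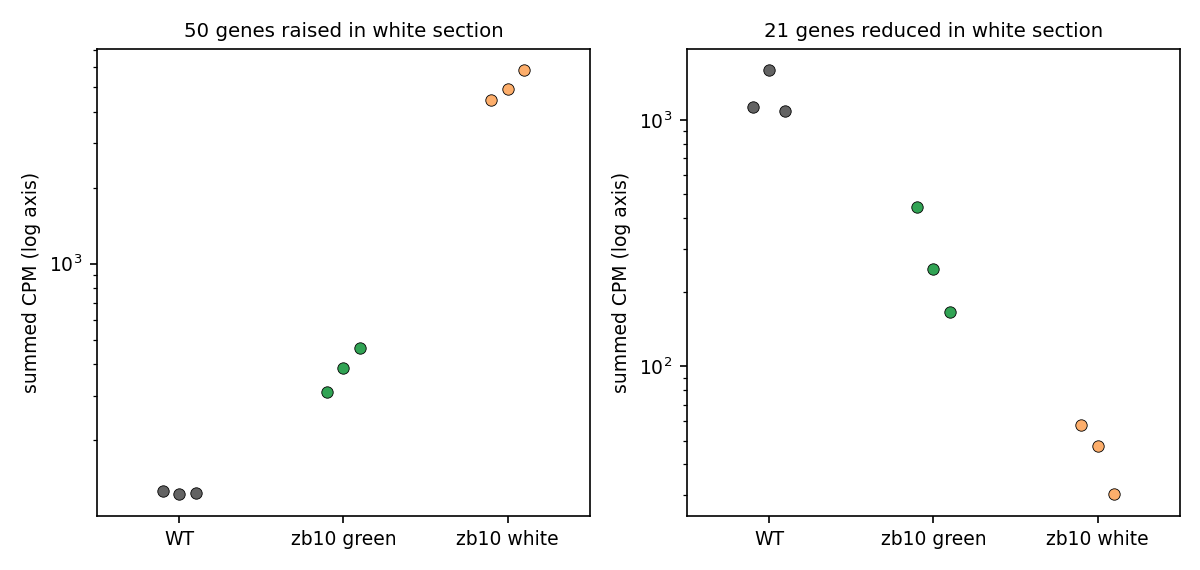
Summed CPM (log axis) in each V4 library for the 50 genes raised and the 21 genes reduced at least 16-fold in the white section against WT. Points are libraries; green libraries run from 310 to 462 CPM in the first list and from 166 to 443 CPM in the second, between WT and white in both.

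Some called genes also differed between the sections. Their white and WT values stand beside the green ones below; since green libraries enter both comparisons, no count of genes shared between them is drawn on. White against green gave calls in 24.4% of all genes tested, 13.5% higher and 10.9% lower in white, and white against WT in 31.5%. With library size as the only scaling, 4493 genes were higher and 1621 lower in white than in green, against 3616 and 2936 in the reported fit. Zm00001d049244 was at 4.49, 4.30 and 4.04 CPM in WT, 25.7, 20.8 and 28.4 CPM in green and 99.1, 148 and 200 CPM in white. The groups formed 3 separate steps (green minus WT 2.56, SE 0.24, adjusted p = 0.0018; white minus green 2.62, SE 0.23, adjusted p = 4.9e-05, both log2). Zm00001d020008 made the mirror image, at 32.8, 42.5 and 32.3 CPM in WT, 6.52, 4.02 and 3.66 CPM in green and 0.671, 0.991 and 0.336 CPM in white. Each step was a fall (green minus WT -2.91, SE 0.28, adjusted p = 0.0019; white minus green -2.79, SE 0.34, adjusted p = 0.00035).

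The step from WT to green was smaller in Zm00001d008214 and Zm00001d015852. Zm00001d008214 went from 7.79 ± 0.184 CPM in WT to 14.2 ± 1.08 CPM in green and 95.5 ± 17.7 CPM in white, with most of the rise between the sections. Zm00001d015852 went from 51.7 ± 8.10 to 25.8 ± 2.21 and 6.42 ± 1.64 CPM. Their green calls (log2 fold changes 0.88 and -0.99, adjusted p = 0.022 and 0.036) did not outlast the omission of any 1 of the 6 libraries, with adjusted p of up to 0.13. The calls of Zm00001d049244 and Zm00001d020008 were lost in 1 alternative only, the fit of all 21 libraries (adjusted p = 0.18 and 0.26).

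Leaves at V9 gave a reading of the V4 list in libraries that share nothing with it. At V9, 12 of 26105 genes were called (0.046%), and 8 of them were among the 205 with the same direction, 6 higher and 2 lower. Only 4 of the 8, all higher, stayed called at V9 whichever V9 library was left out: Zm00001d042453, Zm00001d001804, Zea_mays_newGene_19852 and Zea_mays_newGene_19853. Without WT V9 replicate 3 or any 1 zb10 V9 replicate, 0 of the 2 lower genes passed at V9 (adjusted p of up to 0.33), and 1 passed without WT V9 replicate 1. The V9 call of Zm00001d001771 was lost without any V9 library but WT replicate 2, and that of Zm00001d002338 without WT replicate 1 or 3 or zb10 replicate 3. Of the 205 genes, 190 were tested at V9 and 126 (66.3%) had the same sign, against 52.4% of 24625 genes tested at both stages. The agreement grew with the size of the V4 change. Genes over 4-fold at V4 had the same sign in 38 of 40 cases (95%). Some of these were near 0 in a WT or zb10 leaf group, so that passing the V9 filter fixed or nearly fixed their sign. Without all genes of at most 3 counts in any of the WT and zb10 green or V9 groups, the sign was the same in 28 of 29 cases (96.6%), with a median V9 log2 fold change of 2.67 for the higher and -1.13 for the lower ones. Genes between 2-fold and 4-fold had it in 45 of 69 cases (65.2%). Their median V9 log2 fold change was 0.32 for the higher and -0.15 for the lower ones. Genes under 2-fold had it in 43 of 81 cases (53.1%), close to the share of all genes. Their V9 medians were -0.05 for the higher and -0.06 for the lower ones. These shares describe the list; leaving out single WT or green libraries, which shortens it, put the overall share between 68.8% and 85.7%.

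**Figure D5:**
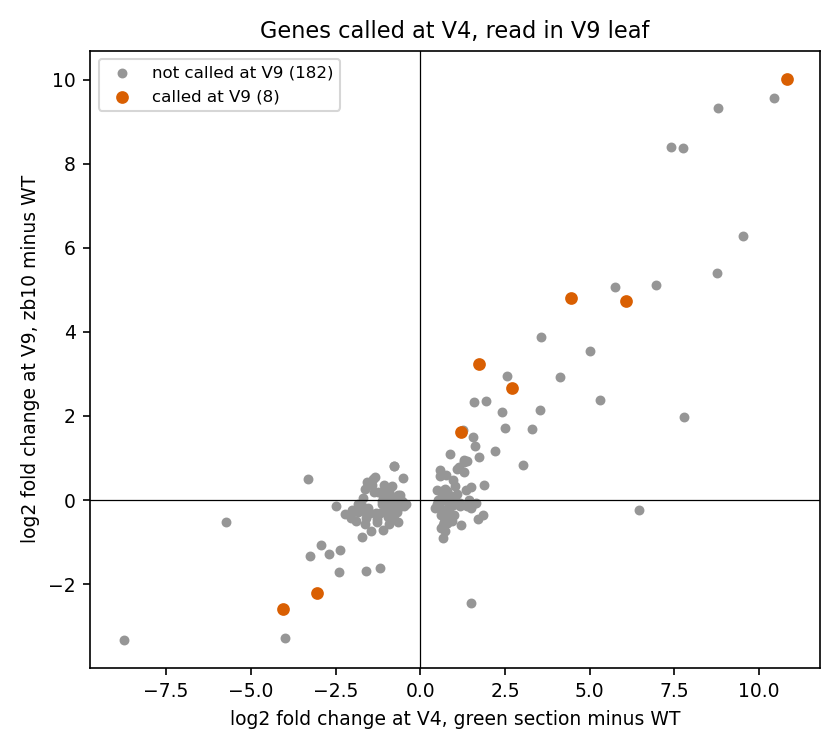
Log2 fold change of zb10 over WT at V9 (vertical axis) against that of the green section over WT at V4 (horizontal axis) for the 190 called V4 genes tested at V9; the stages share no library. Orange points are the 8 genes also called at V9; genes of small V4 change scatter around 0 at V9, and those over 4-fold have the same sign in 38 of 40 cases.

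Beside the 4 IDs above (Zm00001d001909, Zm00001d042453, Zm00001d052985 and Zm00001d001771), the genes called at both stages were Zm00001d002338, Zm00001d001804 and a pair of new loci. Zm00001d002338 was at 20.5, 23.0 and 31 CPM in WT V4 and 49.0, 65.4 and 54.7 CPM in green, and at 12.9 ± 0.244 against 39.1 ± 3.73 CPM at V9. It rose at both stages (log2 fold changes 1.19 and 1.62, adjusted p = 0.015 and 0.0075), and its V4 call was lost without WT replicate 1 or 2 or green replicate 2 (adjusted p of up to 0.086). Zea_mays_newGene_19852 went from 0.617 ± 0.326 to 13.5 ± 2.10 CPM at V4 (log2 fold change 4.44, adjusted p = 0.00014), and Zea_mays_newGene_19853 from 0.16 ± 0.187 to 11.1 ± 2.43 CPM (log2 fold change 6.06, adjusted p = 0.0017). Their IDs are consecutive, and whether reads were shared between them is not known. In endosperm, where 0.0355% of genes were called, neither locus was called. Zea_mays_newGene_19852 stood lower in zb10 there, at 7.43 ± 1.95 against 15.1 ± 2.68 CPM. For Zea_mays_newGene_19853 the endosperm groups overlapped, at 6.36 ± 0.268 CPM in zb10 against 7.94 ± 1.80 CPM in WT. Zm00001d001804 was low in abundance, at 0.713 ± 0.248 CPM in WT and 2.39 ± 0.147 CPM in green (log2 fold change 1.75, adjusted p = 0.043), and its V4 call was lost without any of the 6 libraries (adjusted p of up to 0.16).

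The difference between the effects at V9 and in the V4 green section was itself tested, in a fit of the 15 leaf libraries. It passed in 1 of 28513 genes (0.00351%), Zm00001d042673, with 2710 genes at an unadjusted p under 0.05 and 332 calls with DESeq2. This gene was at 19.5, 21.4 and 19.3 CPM in WT V4 and 31.9, 31.4 and 36.8 CPM in green, a rise without overlap (log2 fold change 0.74, SE 0.09, adjusted p = 0.0077) that did not pass without WT replicate 1 (adjusted p = 0.066) or with all 21 libraries (adjusted p = 0.27). At V9 it was at 41.9, 35.5 and 34.6 CPM in WT and 25.8, 19.2 and 21.4 CPM in zb10, lower without overlap but not called (log2 fold change -0.74, SE 0.15, adjusted p = 0.37). Stage and leaf section change together in this contrast and cannot be told apart.

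IDs of the reference style carry serial numbers, which follow gene order along the chromosomes in this naming scheme. In windows of 100 consecutive numbers with fixed bounds, 146 of 520 windows held a called gene and no window held more than 3. The highest share was in the window from 1700 to 1799, with 3 of 22 tested genes (13.6%, against 0.772% of all reference-style IDs tested). These were Zm00001d001771, Zm00001d001786 (log2 fold change 1.27, adjusted p = 0.018) and Zm00001d001797, and all rose. Zm00001d001804, also called higher (log2 fold change 1.75), lies just past the bound of this window. Zm00001d001909, which fell, and Zm00001d002338, which rose, come later in number. Both were called at V4 and V9, as were Zm00001d001771 and Zm00001d001804. Zm00001d042453 and Zm00001d052985, called at both stages too, have distant numbers. Zm00001d001797 stood at 6.55, 4.79 and 6.07 CPM in WT and 18, 17.2 and 15.9 CPM in green, apart from each other in every library (log2 fold change 1.56, SE 0.14, adjusted p = 0.0017). At V9 it was again higher in zb10, at 16.1 ± 1.09 against 5.74 ± 1.24 CPM (adjusted p = 0.072).

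The other windows with 3 calls were not alike in direction. Zm00001d004340, Zm00001d004342 and Zm00001d004348 all fell (log2 fold changes -1.03, -1.64 and -2.48), as did Zm00001d051088, Zm00001d051093 and Zm00001d051094 (-1.53, -1.14 and -1.33). Zm00001d015824 and Zm00001d015825, neighbours by number, rose (8.76 and 5.74) beside Zm00001d015852, which fell (-0.99). Zm00001d006300, Zm00001d006301 and Zm00001d006346 all rose (1.29, 1.29 and 9.54), and the last window held Zm00001d042634, which fell (-0.66), with Zm00001d042651 and Zm00001d042673, which rose (6.61 and 0.74). These IDs were picked out after their values were seen, and reads shared between neighbours or near-identical copies could not be checked.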

How the data were processed

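Values were used as raw counts per gene, as deposited by the authors in 1 table of 50142 IDs, of which 10819 are newGene loci. A Qiagen RNeasy kit and a SMARTer mRNA library kit were used, per the labels' protocols. How reads were aligned and counted, and on which build, is not given in the sources used here. Column names write zb9 for zb10 and 3L for V4. Columns were assigned by group and replicate number, each name fitting 1 group only, and 0 columns were left over. Replicates are biological according to the series design; p-values reflect variation among these libraries. Counts of replicate libraries differed by more than sampling noise (chi-square of 18.2 to 35.1 per degree of freedom).

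The main test was the quasi-likelihood F-test of edgeR 4.0.16 (R 4.3.3) after TMM scaling, on genes passing filterByExpr (count 10, total 15), with the 9 V4 libraries together, the V9 libraries apart, and 15 leaf libraries for the stage contrast. Standard errors were derived from each fold change and its F statistic. CPM are scaled by TMM over all 21 libraries. DESeq2 1.42.0 served as an alternative tool. Scripts were first tested on simulated data.

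Named genes were called, did not overlap between groups and had a mean log2(CPM + 0.5) of at least 2: the 2 largest changes in each direction among reference-style IDs, new loci, the most abundant genes, genes called or not called between the sections, the ID window richest in calls (of tied windows, that with the highest share) and, without the abundance limit, genes with at most 3 counts in one group; all genes called at V9 too, 3 of them under the limit; and the gene of the stage contrast. The comparison, lists and rules were chosen with earlier results of these data known. Lists by gene name were not used here, since 0 IDs matched. The lists of genes far from WT in the white section were chosen after the data were seen.

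Deviations from group means of white and green libraries with the same replicate number correlated at 0.17, 0.17 and 0.38. Libraries of unlike number were not compared, so these values do not settle whether white and green libraries are paired. The reported tests of white against green take no pairing into account. For WT and green libraries the same correlations lay between -0.15 and 0.09.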

Additional observations from a re-analysis of the deposited data

Results flagged for a closer look

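The mutant effect on Zm00001d042673 differed between V9 leaf and the V4 green section by the test of the difference itself; stage and section cannot be told apart in it. The effect at V9 minus that in the V4 green section was -1.48 on the log2 scale (SE 0.17, adjusted p = 0.015 over 28513 genes, edgeR quasi-likelihood test), higher in green than in WT in 3 of 3 libraries at V4 and lower in zb10 than in WT in 3 of 3 at V9. The call was lost with library size as the only scaling (adjusted p = 0.069), without WT V4 replicate 1 (adjusted p = 0.12) and without zb10 V9 replicate 3 (adjusted p = 0.092), with differences of -1.45 in each case. Over all alternatives the difference ran from -1.38 to -1.6.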

How the results depend on the processing

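The count of 205 genes called in green against WT became 927 with DESeq2, 459 with WT and green alone, 75 with all 21 libraries and 40 to 269 on leaving out single libraries (40 to 90 for WT or green ones); other scalings and filters kept it within 1.5 times. WT and green replicate numbers did not deviate together (correlations 0.09, 0 and -0.15); with the replicate block 120 genes were called, 107 of them among the 205, and 77 with WT and green alone and the block. V9 calls moved from 12 to 243 with DESeq2, 3 with the replicate block and 5 to 146 on leaving out libraries (146 without WT V9 replicate 2). Stage contrast calls moved from 1 to 332 with DESeq2, 3 with the block and 0 to 154 on leaving out libraries (154 without WT V9 replicate 2). The difference between green and WT in the share of counts in new loci turned from 0.00707 to -0.00772 percentage points with TMM-scaled CPM, far within the spread. The total of white against green (the block gave 6087 against 6552) and the count of intervals stayed within 1.5 times. Genes lower in white than in green did not, at 1621 with library size as the only scaling and 1902 without green replicate 2, against 2936. The 8 genes called at both stages became 3 at V9 with the replicate block. For the named genes, 397 of the alternative values kept direction and side of the threshold and 112 kept direction but lost the call; the cause was not tested. Depth limits most the genes with at most 3 counts in a group, whose folds are bounds.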
